A study of Mus musculus with 5 samples.

Results

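Basal cells of stratified and medullary thymic epithelium are held to the basement membrane by hemidesmosomes, and 9 genes of this anchorage and of the basal cell programme were followed here through a map of H3K36me3. They were chosen by name: the basal keratins Krt5 and Krt14, the transcription factor gene Trp63, the integrin chains Itga6, Itgb4 and Itga3, the laminin chains Lama3 and Lamb3, and the transmembrane collagen Col17a1. All 9 were matched among 21887 protein-coding genes of the RefSeq annotation of mm10. The cells were mTEClo, which are medullary thymic epithelial cells with little CD80, sorted as EpCAM+ UEA-1+ Ly51lo CD80lo from the thymus of wild-type B6 mice. No age is given in the labels. Of the 5 samples, 2 are H3K36me3 chromatin immunoprecipitations, called series 1 and series 2, and 3 are inputs without antibody; each immunoprecipitation comes with 1 list of broad peaks called against its own inputs. The cells came from individual mice, but which mouse went into which library is not stated, so the 2 lists may differ for biological or technical reasons.

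In a hemidesmosome, the integrin α6β4 and collagen XVII span the plasma membrane, bind laminin-332 outside the cell and are tied inside it, through plakin proteins, to filaments made of keratin 5 paired with keratin 14. Integrin α3β1 binds the same laminin from focal contacts. The p63 protein is a p53 family transcription factor that maintains basal epithelial cells and acts on several of these genes. H3K36me3 is deposited by SETD2 behind elongating RNA polymerase II, and lies mainly along the bodies of transcribed genes and toward their 3′ ends.

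Both immunoprecipitations marked Krt5, Itga3, Itga6, Lama3 and Lamb3, series 1 alone marked Itgb4 and Trp63, and neither marked Krt14 or Col17a1. A gene is counted as marked when at least 1 bp of its span lay under a peak. By this rule 7 of 9 genes were marked in series 1 (77.8%), where 16.3% of all protein-coding genes were. In series 2 it was 5 of 9 (55.6%), against 19.5% of all genes. The same 5 were marked in both series, against 8.42% of all genes, and 7 were marked in either series, against 27.4%. The 9 genes were chosen by name, with earlier results of these data known, and are not a sample from a larger set. With 1 library per series there is no replicate test of any difference between the lists, and counts over 9 genes describe these libraries.

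Gene length bears on these counts, since a long gene offers more room for a peak. The 9 genes ran from 4.35 to 250 kb with a median of 45.7 kb, where the median of all protein-coding genes was 17.2 kb. When every protein-coding gene was placed in 1 of 10 length classes of equal size, the classes of these 9 genes had on average 25.6% of their genes marked in series 1, 30.5% in series 2, 14.6% in both and 41.5% in either. The counts of the 9 genes lie above these averages in each case. The median covered share, the percent of a gene span under peaks, was 1.13% over the 9 genes in series 1 and 0.444% in series 2. Over all protein-coding genes the median was 0 in both. With 16.3% and 19.5% of all genes marked it is bound to be 0, so it adds nothing to the counts.

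**Figure D1:**
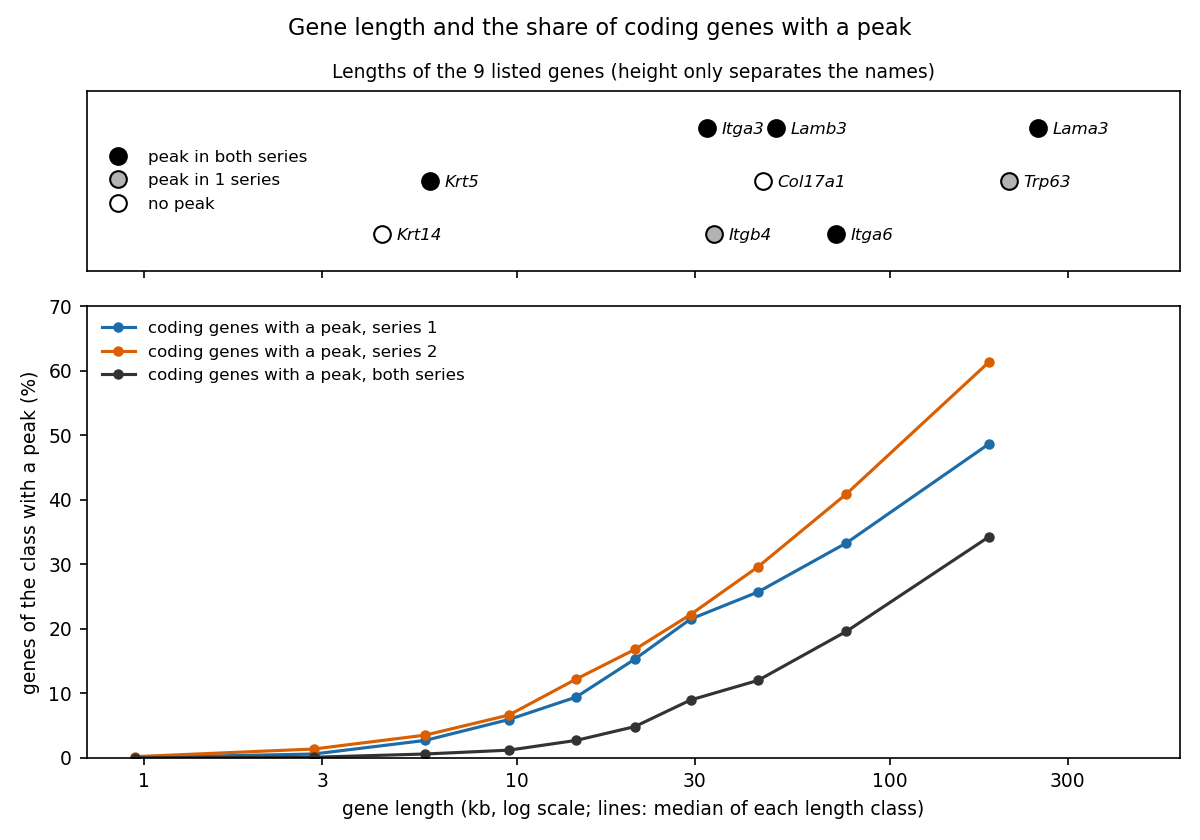
Lower panel: percent of protein-coding genes with a peak (vertical axis) in each of 10 length classes, drawn at the median length of the class in kb on a log scale (horizontal axis), for series 1, series 2 and both. Upper panel: lengths of the 9 genes, filled black where both series held a peak, grey for 1 series and white for none; Krt5 and Krt14 lie in a class in which 0.594% of genes were marked in both series, Lama3 and Trp63 in one in which 34.3% were.

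The 2 members whose listed RefSeq start coincides with the 5′ end of their annotated span are shown by the 250 bases before that start, since they give fixed points for the distances of peaks: Krt5, the shortest marked member (chr15:101712906-101713155, mm10, minus strand), and Col17a1, an unmarked one (chr19:47692043-47692292, mm10, minus strand). Capitals mark matches to TATAAA or to the p53 family half-site consensus, searched on both strands.
Krt5: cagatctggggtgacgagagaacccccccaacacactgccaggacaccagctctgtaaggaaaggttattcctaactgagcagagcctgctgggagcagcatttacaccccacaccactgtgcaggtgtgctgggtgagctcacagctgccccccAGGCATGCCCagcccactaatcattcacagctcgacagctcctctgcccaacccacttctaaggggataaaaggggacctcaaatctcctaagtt
Col17a1: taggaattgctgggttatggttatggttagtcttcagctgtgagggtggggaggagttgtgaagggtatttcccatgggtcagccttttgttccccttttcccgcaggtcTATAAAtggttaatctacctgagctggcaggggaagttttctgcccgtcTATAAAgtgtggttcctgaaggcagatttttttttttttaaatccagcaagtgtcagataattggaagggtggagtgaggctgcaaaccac
Krt5 held 1 match to the p53 family consensus, 95 to 86 bases before the start, and none to TATAAA. Col17a1 held 2 matches to TATAAA, from 140 and 91 bases before the start, and none to the p53 family consensus, and no match overlapped another. Among 32851 RefSeq promoter windows of the same length, 7.13% held the p53 family consensus and 12.4% held TATAAA. These matches are letters in a sequence and not measured binding. No peak of either series lay in these windows.

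Krt5, which encodes the type II keratin of basal cells, had the highest mean covered share of all members. It lies on chromosome 15 from 101707069 to 101712905. Series 1 held 1 peak in it, from 101709373 to 101709697, 325 bp wide with a score of 104. Series 2 held 1 peak there too, from 101709275 to 101709829, 555 bp wide with a score of 76. The score is the authors' own whole number per peak, runs upward from 10, and serves here only to rank peaks within a list. The series 1 peak lay wholly inside the series 2 peak, and their centres were 3.37 and 3.35 kb downstream of the start shown above. Within their lists both peaks stand near the top: 0.650% of series 1 peaks scored as high or higher, and 0.674% of series 2 peaks did.

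Krt5 is 5.84 kb long, and genes of that length seldom carried peaks. The covered share of Krt5 was 5.57% in series 1 and 9.51% in series 2, or 7.54% ± 2.79 (SD, n = 2). In its length class of 2189 genes, 13 were marked in both series. Of the 59 marked in series 1, 43 including Krt5 reached its covered share there, and of the 77 marked in series 2, 9 including Krt5 did. Over all 21887 protein-coding genes, 14 including Krt5 reached its covered share in both series at once. This comparison takes no account of length, and a peak of a given width covers more of a short gene. In bases under peaks Krt5 stood lower, with the fewest of the 7 members marked in series 1 (325 bp). In series 2 its 555 bp lay below Itga6 (1465 bp), Lama3 (1109 bp) and Lamb3 (960 bp), and above Itga3 (405 bp). No neighbouring gene lies within 5 kb, so the peaks fall to Krt5 alone.

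Krt14, the type I partner of Krt5, is a 4.35 kb gene on chromosome 11 from 100203162 to 100207510 and held no peak in either series. The nearest peak was 303 kb away in series 1 and 132 kb away in series 2. The keratin pair thus differed in both lists. In the length class that the 2 genes share, 5.62% of genes were marked in either series, so the lack of a peak was the common outcome. No read counts come with the lists, so the depth behind them is unknown, and the lack of a peak means that the mark was not detected, not that it was absent.

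The other keratin genes were nearly all without peaks. Of 53 keratin genes in all, Krt5 and Krt7 were the ones with a peak in either series. Among the 51 other than Krt5 and Krt14, 1 gene (1.96%) was marked in both series, against 8.42% of all genes. With a median length of 7.32 kb these genes are short, and the rates of their length classes sum to 0.621 genes for both series and 4.86 for either, where 1 was marked in each case. Krt7, the type II keratin of simple and glandular epithelium, had 7.91% of its span covered in series 1 and 9.13% in series 2, with 2 peaks in each and 214 bp in common. It lies 279 kb below Krt5 in the same cluster on chromosome 15, and the 11 keratin genes between them had no peak. The peaks nearest to Krt5 were at Krt7 in both series, 278 and 287 kb away; that of series 1 had 42 of its 907 bp within Krt7 and the rest beyond its upper end.

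**Figure D2:**
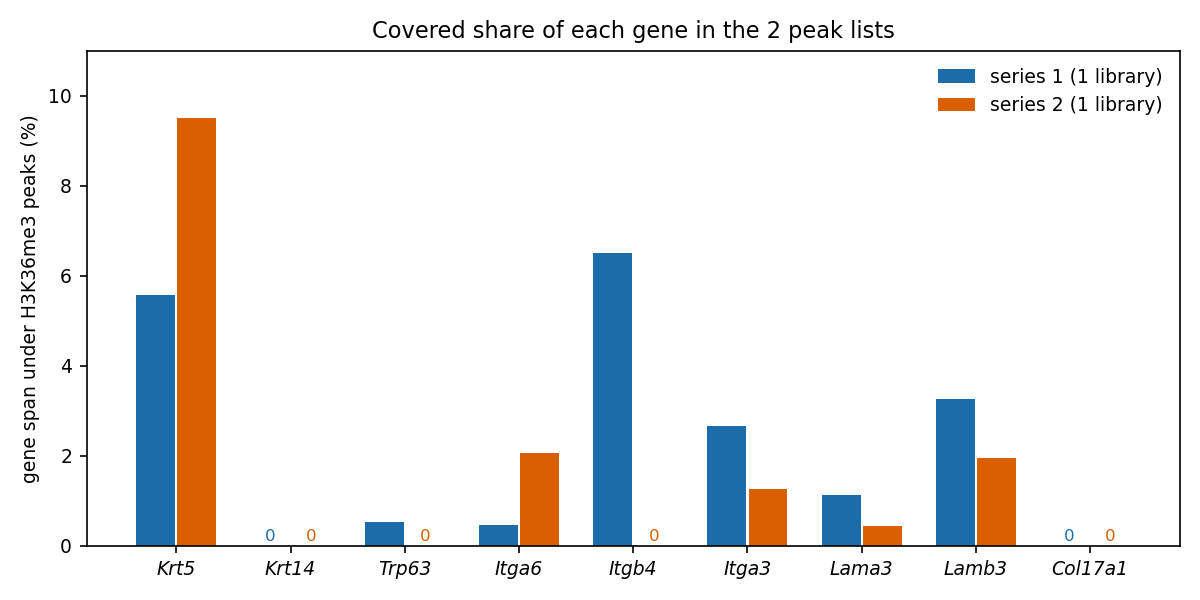
Percent of the gene span under H3K36me3 peaks (vertical axis, from 0) for the 9 genes (horizontal axis) in series 1 and series 2, 1 library each, with a 0 printed where no peak lay in the gene. Krt5 is covered in both series (5.57% and 9.51%), Itgb4 in series 1 alone (6.51%), and Krt14 and Col17a1 in neither.

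Trp63, the gene of p63, is 208 kb long (chromosome 16 from 25683763 to 25892088) and held 2 peaks in series 1 and none in series 2. They were 688 and 414 bp wide, 8.38 and 139 kb from the lower end of the span, and covered 0.529% of it. Their scores of 17 and 12 were low in the list, with 79.4% and 97.7% of series 1 peaks scoring as high or higher. In the length class of Trp63, 75.8% of genes held a peak in either series, so a peak in 1 list is common for a gene of this size. The nearest series 2 peak was 275 kb outside the gene, and the small nuclear RNA gene Gm24928 within it had no peak.

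Of the laminin-332 chains, the α3 chain gene Lama3 was marked by the most peaks of all members, 4 in series 1 and 5 in series 2, although they covered only 1.13% and 0.444% of its 250 kb span, or 0.787% ± 0.485 (SD, n = 2). Lama3 lies on chromosome 18 from 12333417 to 12583013. The centres of all 9 peaks lay at 71.0% or more of the way from the lower end of the span to the upper. The 4 series 1 peaks had their centres between 88.8 and 99.6% of the span, were 228 to 1259 bp wide, and scored 22 to 29. The 5 series 2 peaks lay between 71.0 and 87.8%, were 216 to 231 bp wide, and scored 12 to 75. The peaks of the 2 series did not overlap, the closest pair being 2.18 kb apart. In the length class of Lama3 34.3% of genes were marked in both series, and 30 of its 2188 genes, including Lama3, had at least as many peaks in each. The noncoding genes Gm36232 and Gm29200 within Lama3 and the coding gene Ttc39c, 0.089 kb beyond its upper end, had none.

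The β3 chain gene Lamb3, on chromosome 1 from 193294353 to 193343878, held 3 peaks in series 1 and 1 in series 2. Its covered share was 3.25% and 1.94%, or 2.60% ± 0.929 (SD, n = 2). The series 1 peaks were 590, 402 and 619 bp wide and the series 2 peak 960 bp. Scores were low, at 15, 19 and 15 in series 1 and 12 in series 2. No series 1 peak overlapped the series 2 peak, and the closest stood 3.97 kb from it. The noncoding gene Gm51741 within Lamb3 had none. In series 1 a further peak of 1575 bp lay 0.790 kb beyond the upper end of Lamb3 and short of Camk1g, 2.47 kb away, which encodes a calmodulin-dependent kinase and had a peak of its own in series 1.

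The laminin receptor genes among the members, Itga6, Itga3 and Itgb4, were all marked in series 1. Itga6, which encodes the α6 chain and lies on chromosome 2 from 71786886 to 71858427, had 1 peak of 328 bp with a score of 36 in series 1. In series 2 it had 4 peaks of 814, 217, 216 and 218 bp with scores of 19, 12, 15 and 29. The widest of these overlapped the series 1 peak by 135 bp, with centres 31.6 and 32.0 kb from the lower end of the 71.5 kb span. The other 3 had no counterpart in series 1 and were among the narrowest of their list. Covered shares were 0.458% and 2.05%, or 1.25% ± 1.12 (SD, n = 2).

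Itga3, encoding the α3 chain of the other laminin receptor, carried the highest-scoring peak of all members. It lies on chromosome 11 from 95044475 to 95076844. In series 1 a peak of 561 bp from 95060352 to 95060912 scored 172, a score reached by 8 of the 7231 series 1 peaks (0.111%), and a second of 298 bp scored 24. In series 2 a peak of 405 bp from 95060479 to 95060883 scored 25, reached by 18.7% of that list. The series 2 peak lay wholly inside the first series 1 peak, near the middle of the gene at 49.9 to 50.1% of the way from the 5′ end. The place was thus shared, while the rank within the list was not. Covered shares were 2.65% and 1.25%, or 1.95% ± 0.992 (SD, n = 2), and the neighbouring kinase gene Pdk2, 3.10 kb away, had no peak.

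Itgb4, whose β4 chain joins α6 and carries the long cytoplasmic tail that binds plectin, was marked in series 1 alone. It lies on chromosome 11 from 115974725 to 116008412. Its 3 peaks were 1143, 735 and 314 bp wide with scores of 21, 63 and 27, and covered 6.51% of the span, the highest share of any member in series 1. In its length class of 2188 genes, 35 including Itgb4 reached that share. The peak with the score of 63 also overlaps the long noncoding RNA gene B230344G16Rik, which lies within Itgb4, and the peak cannot be given to either gene. Series 2 had no peak in Itgb4 and its nearest was 17.9 kb away. The galactokinase gene Galk1, which overlaps the end of Itgb4, had none in either series.

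Col17a1, encoding collagen XVII, was without a peak in either series. It lies on chromosome 19 from 47646341 to 47692042 and is 45.7 kb long, close to Lamb3 in length. In their shared length class 12.0% of genes were marked in both series and 43.3% in either, so the lack of a peak was the more common outcome. The nearest peaks were 41.6 kb away in series 1 and 17.2 kb away in series 2. The latter lay in the kinase gene Slk, which ends 1.09 kb from Col17a1 and had 2 peaks in series 2.

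**Figure D3:**
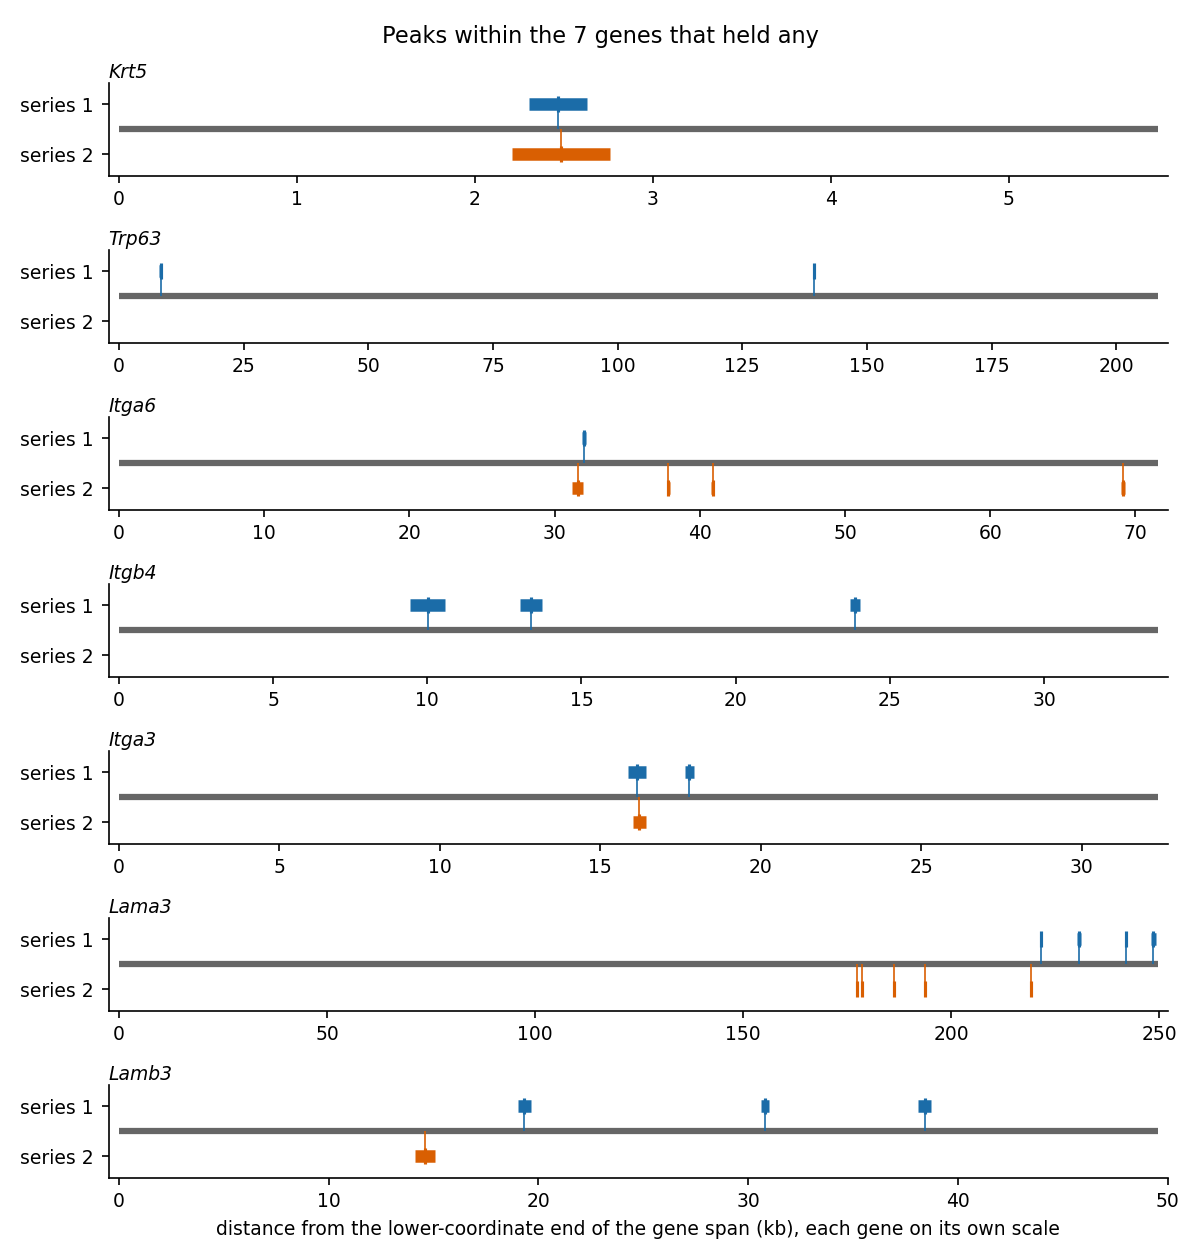
Peaks of series 1 (above each line) and series 2 (below) along the 7 genes that held any, as distance in kb from the lower-coordinate end of the gene span (horizontal axis, a separate scale for each gene); bars show peak widths and ticks their centres. Peaks of both series overlap in Krt5, Itga6 and Itga3, and lie apart in Lama3 and Lamb3.

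By mean covered share the order was Krt5, Itgb4 (3.25% ± 4.60, SD, n = 2), Lamb3, Itga3, Itga6, Lama3 and Trp63 (0.264% ± 0.374, SD, n = 2), with Krt14 and Col17a1 at 0. Itgb4 stood above Krt5 in series 1 and at 0 in series 2. By this share, which favours short genes, Krt5 lay above the other members marked in both series in each list. Neighbours further down the order were closer to each other than the 2 series were for at least 1 gene of each pair, and no order is read from them.

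Some peaks of the 2 series lay at the same place. They shared bases within Krt5 (325 bp), Itga3 (405 bp) and Itga6 (135 bp), which are 3 of 9 genes, where 1.48% of all protein-coding genes had shared bases. Of genes marked in both series, 3 of 5 members had shared bases and 324 of 1843 protein-coding genes did (17.6%). Counted by peaks, 3 of 16 series 1 peaks in the members (18.8%) touched a series 2 peak, against 4.98% of all series 1 peaks, and 3 of 12 in series 2 (25.0%), against 3.52%. These small counts were not tested.

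The members' peaks resembled their lists in width and score apart from a few. Series 1 peaks in the members had a median width of 488 bp and a median score of 25.5, and the whole list had 483 bp and 21. Series 2 peaks had a median width of 222 bp, the same as their list, and a median score of 19.5 against 16. A score of at least 50 was reached in series 1 by Itga3, Krt5 and Itgb4, 1 peak each, and in series 2 by Krt5 and Lama3; 6.26% and 2.48% of the lists' peaks reach it. With only such peaks, Krt5 was marked in both series, 1 of 9 members, where 0.0868% of all protein-coding genes (19 genes) were. With scores of at least 20, 4 of 9 members remained marked in both series, Lamb3 being lost, against 3.30% of all genes.

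Rules on peak width, on overlap and on a wider span gave the same 5 genes, and a rule on covered share did not. Leaving out the narrowest peaks, those at most 9 bp wider than the narrowest of their list, which are 65.6% of series 2, kept all 5 marked in both series, against 4.95% of all genes. Asking for at least 50% of a peak to lie within the gene kept them as well, against 8.39%. Widening each span by 5 kb on each side cannot remove a marked gene, and it added no member to the 5, against 9.43% of all genes. With at least 10% of the span covered in both series no member was marked, and 0.0183% of all genes were.

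**Figure D4:**
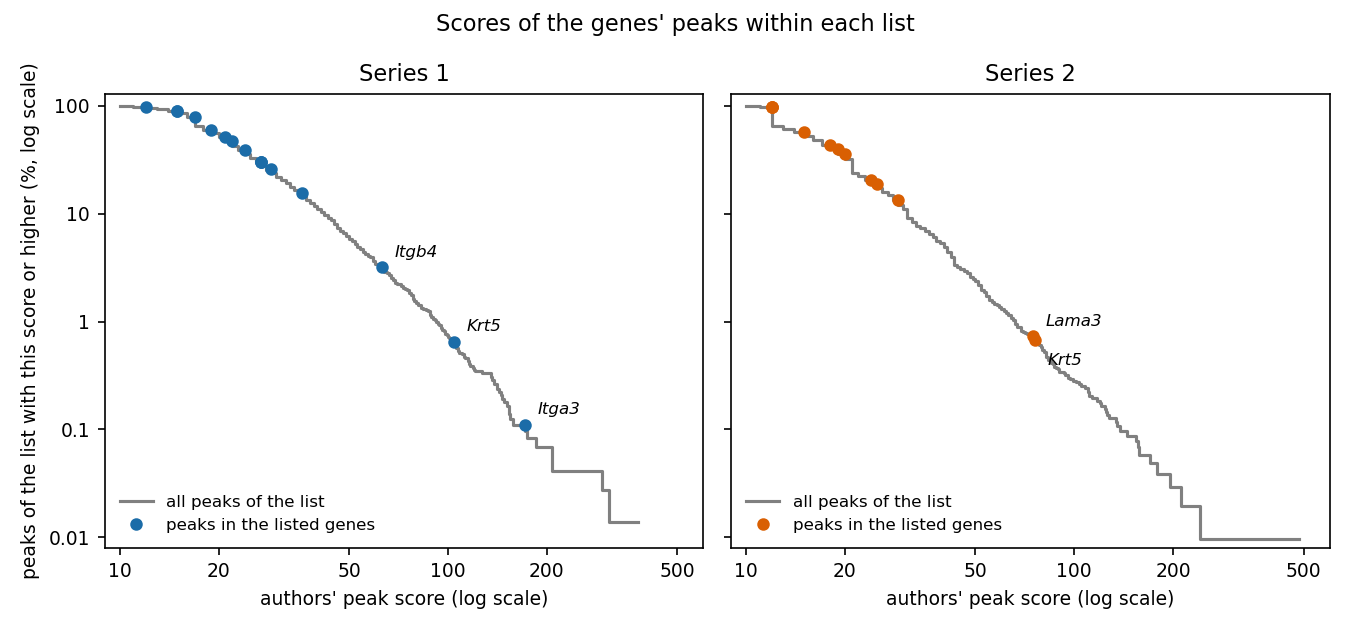
Percent of all peaks of a list that reach a score (vertical axis, log scale) against the authors' peak score (horizontal axis, log scale), for series 1 (left) and series 2 (right); grey steps are the whole list and dots the peaks in the 9 genes. Itga3 (172), Krt5 (104) and Itgb4 (63) stand out in series 1, Krt5 (76) and Lama3 (75) in series 2, and the other dots lie below a score of 50.

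Strand is given for Krt5, Itga3 and Lamb3 among the marked genes, so their peaks can be placed from the 5′ end of the span. In Krt5 the centres were at 57.7 and 57.5% of the span, in Itga3 between 45.1 and 50.1%, and in Lamb3 at 39.0, 62.2 and 77.6% in series 1 and at 29.4% in series 2. None lay in the first 10% of the gene. Over all protein-coding genes with a known strand the median position was 60.9% in series 1 and 58.9% in series 2, and 4.64% and 5.36% of peaks lay in the first 10% of a gene. Exons and introns are not in the gene table used, so the peaks were not assigned to them.

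Of the further genes of cell attachment that held a peak, most held it in 1 series and not the other. Of 22 genes encoding other laminin and collagen chains, plakins, integrins and their partners, 17 were marked in either series (77.3%, against 27.4% of all genes), 10 of them in series 1 and 11 in series 2. In both series 4 (18.2%) were marked, against 8.42% of all genes. Their median length is 62.0 kb, and the rates of their length classes sum to 10.8 genes for either series and 3.93 for both. The 4 were Sdc4, a heparan sulfate proteoglycan of focal adhesions (5.84% and 1.15% covered), Tln1, which encodes talin (0.763% and 2.46%), Col4a1, a basement membrane collagen chain (1.01% and 1.55%), and Dst, which encodes the plakin BPAG1 (0.625% and 0.787%). Dst had 4 and 9 peaks, with 514 bp in common, and a highest score of 107 in series 1. Plec, which encodes plectin, had 1 peak in series 1, as did Dag1 (1.85%) and Lamb1 (1.69%), and Cd151, a tetraspanin of hemidesmosomes, had none. Col4a1 overlaps Col4a2 and other annotated genes, and Dst overlaps Bend6.

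Among 24 partner and target genes of p63, series 1 marked 6 and series 2 marked 8, and 4 genes (16.7%) were marked by both. That stands against 8.42% of all genes, and the rates of their length classes sum to 2.13 genes. With scores of at least 20, or without the narrowest peaks, the count was 2. In either series 10 were marked, where the rates of their length classes sum to 7.34. Dsp, which encodes the desmosomal plakin desmoplakin, had 8.33% of its span covered in series 1 by 4 peaks and 0.467% in series 2 by 1. Egfr (0.930% and 1.63%), Grhl2 (1.42% and 0.252%) and Fgfr2 (1.38% and 0.216%), which encode epithelial growth factor receptors and a grainyhead transcription factor, were the others. Perp, a p63 target of desmosomes, had 1 in series 2 over 1.83%. The p53 family genes Trp53 and Trp73 had none.

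Markers of the sorted cells and of others were read by the same rule. Of 12 medullary epithelial markers, 3 were marked in each series and 4 in either: Krt5, Itga6, Pdpn and Relb. The rates of their length classes sum to 2.05 genes in either series. Krt5, Itga6 and the unmarked Krt14 are also members, and only Krt5 and Itga6 of these markers were marked in both series. The 4 against 2.05 therefore partly counts the members' own peaks again. Apart from members, Pdpn was marked in series 1 alone (score 17) and Relb in series 2 alone (score 12). Epcam, used for the sort, and Foxn1 and Ccl21a held no peak, so these lists do not show the cell type through them. Of 8 thymocyte markers none held a peak in either series, against a sum of 1.83. Fibroblast markers numbered 2 of 7 in either series (Fbn1 in both, Pdgfrb in series 1) against 2.73, with at most 0.799% of a span covered. Fbn1, a 206 kb gene, had 3 peaks in series 1 and 2 in series 2, with 174 bp in common. Its highest scores were 141 and 38, and the former lay between those of Krt5 (104) and Itga3 (172) in series 1. Endothelial markers numbered 1 of 6 (Flt1) against 3.36, and cortical epithelial markers 1 of 6 (Ly75) against 1.80. Laminin and integrin genes are active in several of these cell types, and the part of other cells in the peaks described was not tested.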

How the data were processed

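Chromatin of sorted mTEClo was immunoprecipitated for H3K36me3, and 2 peak lists, of 7231 (series 1) and 10243 (series 2) peaks, were analysed; inputs were used only through the authors' peak calling. Per the submitters' processing notes the tools were Bowtie2, SAMtools and MACS2 and the build mm10; no versions or settings are given there. By the names of its peaks, series 1 was called against 2 inputs and series 2 against 1. The authors deposited a whole-number score per peak, whose meaning is not stated. Neither list holds read counts, so depth is unknown.

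Gene spans were taken from a RefSeq gene table (GRCm38.p6, mm10) without exons; strand came from RefSeq promoter windows. Bases, peaks and highest scores per span were computed in Python 3.11.15 with pandas 2.3.3, numpy 2.4.6 and scipy 1.17.1, and checked base by base on made-up data. No comparison was tested, with 1 library per list. Alternatives were other score, width, overlap, span and coverage rules and each library alone. Named genes were the 9 members, genes within 5 kb of them, and in each further list up to 4 marked in both series and 2 in 1 series, by covered share; others were named after their values were seen. Members and lists were chosen with earlier results of these data known. Some genes of the further lists are not reported here by name.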

Additional observations from a re-analysis of the deposited data

How the results depend on the processing

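When only peaks scoring 50 or more were used, the counts of marked genes fell to 3 members in series 1, 2 in series 2, 1 in both and 4 in either, and 0 genes of each further list in both series. With at least 10% of the span covered, all 7 counts were 0. For the p63 partner and target list, 2 genes in place of 4 were marked in both series with scores of at least 20, and 2 without the narrowest peaks. The cause was not tested, beyond there being fewer peaks under each rule. With each library left out in turn, the count for both series became the count in the remaining list, which cannot be lower. Members then ranged from 5 to 7 and attachment partner genes from 10 to 11. The p63 partner and target genes ranged from 6 to 8, and other keratin genes stayed at 1. Without the series 1 library attachment partner genes numbered 11 and p63 genes 8, without the series 2 library 10 and 6. All other counts were within 1.5 times those reported. The 12 covered shares of single members above 0 were each read under 4 other settings, giving 48 values. Of these 18 were unchanged, 10 fell to 0, 19 were lower and 1 was higher. Settings that leave out peaks cannot raise a share. The wider span also enlarges the length by which bases are divided, and under it 11 shares were lower and 1 was higher. With scores of at least 20 the share of Itga6 in series 2 was 0.305%, and with 50 that of Itgb4 in series 1 was 2.18%. No paired analysis was possible because the inputs have no values of their own in the files analysed. The number of libraries and the unknown depth limit what a missing peak can show.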
